A study of Mus musculus with 6 samples.

Results

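The genes described here are 46 subunits of the respiratory chain, ATP synthase and cytochrome c, 13 encoded in mitochondrial DNA and 33 in the nucleus. They were chosen by name, and each symbol matched a single Ensembl gene among the 53801 genes in the tables. RNA-seq was performed on CT26, a colon carcinoma line from BALB/c mice, in 3 groups of 2 libraries: the barcoded parental line, which is a mixed population, and the ICB-resistant lines B04 and B64. Each resistant line was grown from a single cell and so stands for 1 clone, and a difference between lines is a difference between those clones and the parental mixture. By the study's account, the clones were isolated from tumours grown in mice, after immune checkpoint blockade (ICB), and the parental cells were recovered in bulk after growth in mice. The effects of that history and of the clone cannot be told apart here. All 3 groups were cultured in RPMI medium. The methods name puromycin selection in culture of the cells recovered from tumours, and no agent for the cultures from which RNA was taken. The sample titles speak of tumours derived from these cells, whereas the methods of the study describe cultured lines. The 2 libraries of a group are named A and B, and nothing states that they came from separate cultures, so p-values measure the spread between these libraries only.

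The respiratory chain sits in the inner mitochondrial membrane and passes electrons from NADH and succinate to oxygen. Complex I, complex III and complex IV pump protons as electrons pass, complex II feeds electrons in from succinate, cytochrome c carries them between complex III and complex IV, and complex V uses the proton gradient to make ATP. Complexes I, III, IV and V are built from subunits of both genomes, while complex II and cytochrome c are encoded in the nucleus alone. The mitochondrial genes are transcribed from both strands of a small circular genome as long precursors that are then cut apart, so their RNA levels do not depend on separate promoters as those of nuclear genes do.

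Libraries held between 19409204 and 23472012 expected counts. They differed in fragment length, measured as RSEM length minus effective length. The measure was 277.3 bases in parental A, 276.6 in parental B and 271.8 in B04 A, against 225.2 in B04 B, 220.8 in B64 A and 246.2 in B64 B. Libraries were classed as long or short at 249.1 bases, the midpoint between the highest and lowest values, and B64 B lay just below it. Both B64 libraries were thus short and both parental libraries long, so line and fragment length cannot be told apart in that comparison, whereas B04 had a library of each kind. The 9 markers of colon epithelium summed to between 22.38 and 25.42 TPM in parental and B04, and to 46.13 and 48.23 in B64, nearly all of it Krt18 and Krt20. Of 4 tested, 2 were called higher in B64 than in either other line. Krt20 had 288 and 321 normalised counts in parental, 286 and 302 in B04, and 786 and 817 in B64. Epcam and Cdh1 were at most 2 in every library, Vil1 was at 0, and Cdx2 had 33 and 22 in parental and 0 in every clone library. Summed leukocyte markers were between 10.55 and 12.68 TPM in parental and B04 and at 40.22 and 36.64 in B64, nearly all of it Cd68, and 1 of 2 tested was called higher in B64 than in either other line. Ptprc, also on the leukocyte list, had at most 1 normalised count in every library, B64 included. Cd3e, Cd8a and Nkg7 were among the markers at 0, and endothelial markers reached at most 0.1 TPM. The part of the marker genes in the results on B64 was not tested.

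Several mitochondrial genes share their sequence with copies in the nuclear genome, which bears on every count below. Transcripts of the mitochondrial members were compared with all annotated mouse transcripts, and 7 of them had a copy on chromosome 1, between bases 24611535 and 24616197 of GRCm38. The copies of mt-Co2 (Gm28661), mt-Atp6 (Gm10925), mt-Co3 (Gm28437), mt-Nd4 (Gm28439) and mt-Nd4l (Gm10222) held 0 mismatches over 681, 678, 783, 876 and 294 compared bases. The copy of mt-Nd3 (Gm28438) differed at a single base of 345, T3C, with positions counted from 1 at the start of mt-Nd3 and the mitochondrial base given first. The first 33 bases of both genes are printed because this is the only base that separates them, shown in capitals. They lie at chrM:9459-9491 on the plus strand and chr1:24613087-24613119 on the minus strand.
mt-Nd3: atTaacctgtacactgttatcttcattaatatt
Gm28438: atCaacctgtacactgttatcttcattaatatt

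The 2 shortest members are printed whole, because their counts differed most between long-fragment and short-fragment libraries. mt-Atp8, a small membrane subunit of complex V, spans 204 bases (chrM:7766-7969, plus strand). Its last 43 bases, in capitals, are also the start of mt-Atp6. mt-Nd4l, a membrane subunit of complex I, spans 297 bases (chrM:9877-10173, plus strand), and its last 7 bases, in capitals, are also the start of mt-Nd4. Reads that lie within these overlaps cannot be told apart.
mt-Atp8: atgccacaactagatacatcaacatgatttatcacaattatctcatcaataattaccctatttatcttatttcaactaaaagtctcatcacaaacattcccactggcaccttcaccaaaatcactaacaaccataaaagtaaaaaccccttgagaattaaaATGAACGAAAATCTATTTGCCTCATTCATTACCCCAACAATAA
mt-Nd4l: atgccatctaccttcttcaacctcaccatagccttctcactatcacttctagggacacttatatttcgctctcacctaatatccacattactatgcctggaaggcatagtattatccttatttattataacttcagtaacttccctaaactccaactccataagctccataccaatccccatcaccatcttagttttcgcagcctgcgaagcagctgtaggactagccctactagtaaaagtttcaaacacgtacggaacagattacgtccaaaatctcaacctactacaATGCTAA

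Among the 13 mitochondrial members, 0 were called in B04 against parental, 0 in B64 against parental and 0 in B64 against B04 by DESeq2 at an adjusted p under 0.05. Over all genes, 24.1%, 16.3% and 24.3% were called in these comparisons. At an unadjusted p under 0.05, the members past the threshold numbered 0, 3 and 0. The quasi-likelihood test of edgeR called 0, 2 and 0, the 2 being mt-Nd4l and mt-Atp8 in B64. The median log2 fold change of the 13 was 0.15 in B04 and 0.06 in B64, beside a median of 0 over all genes tested, and standard errors were between 0.09 and 0.83. In bulk RNA, a change in mitochondria per cell and a change in RNA per mitochondrion cannot be told apart.

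Replicates differed more widely in parental and B64 than in B04, as the most abundant members show. mt-Co1, the catalytic core of complex IV and the most abundant member, had 97381 and 76563 normalised counts in the parental libraries A and B, 110915 and 104520 in B04, and 105789 and 85026 in B64. B04 lay above both parental libraries (log2 fold change 0.31, SE 0.19, adjusted p = 0.26), whereas B64 overlapped them. mt-Nd1, a membrane subunit of complex I, gave 42546 and 36129 in parental, 42120 and 45471 in B04, and 48611 and 37851 in B64. mt-Cytb, the core of complex III, gave 32206 and 26009, 32036 and 31892, and 35798 and 27258. For both genes the 3 groups overlapped.

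Library B was the lower of the pair for most mitochondrial members in 2 lines. Replicate A exceeded B in 12 of 13 members in parental and in 12 of 13 in B64, with median log2 differences of 0.29 and 0.39, but in 6 of 13 in B04. Nuclear members did not share this pattern. In the parental line, A exceeded B in 1 of 33 nuclear members, in B04 in 4 of 33 and in B64 in 17 of 33. Over all genes, A exceeded B in 50.2% of genes in parental, 51.4% in B04 and 49% in B64. The part that library preparation, culture or RNA quality had in this pattern was not tested.

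Calls for mitochondrial members depended on single libraries. Without B64 A, mt-Nd2 (log2 fold change -0.32, adjusted p = 0.0132) and mt-Co3 (-0.48, adjusted p = 3.98e-09) were called lower in B64 than in parental, and mt-Nd2 (-0.37), mt-Co3 (-0.43) and mt-Nd6 (-0.48) were called lower than in B04. Without B64 B, mt-Nd3 was called higher in B64 than in parental (0.35, adjusted p = 0.00384). With all libraries it was at 0.21 (adjusted p = 0.102), but the sign turned with each library's effective length as an offset in the DESeq2 fit (-0.40, adjusted p = 0.0564) and by limma on log2(TPM + 1) (-0.35, adjusted p = 0.231). Without parental A, mt-Nd4l was called higher in B04 (1.13) and in B64 (1.5), and without parental B it was called higher in B64 (0.54).

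**Figure D1:**
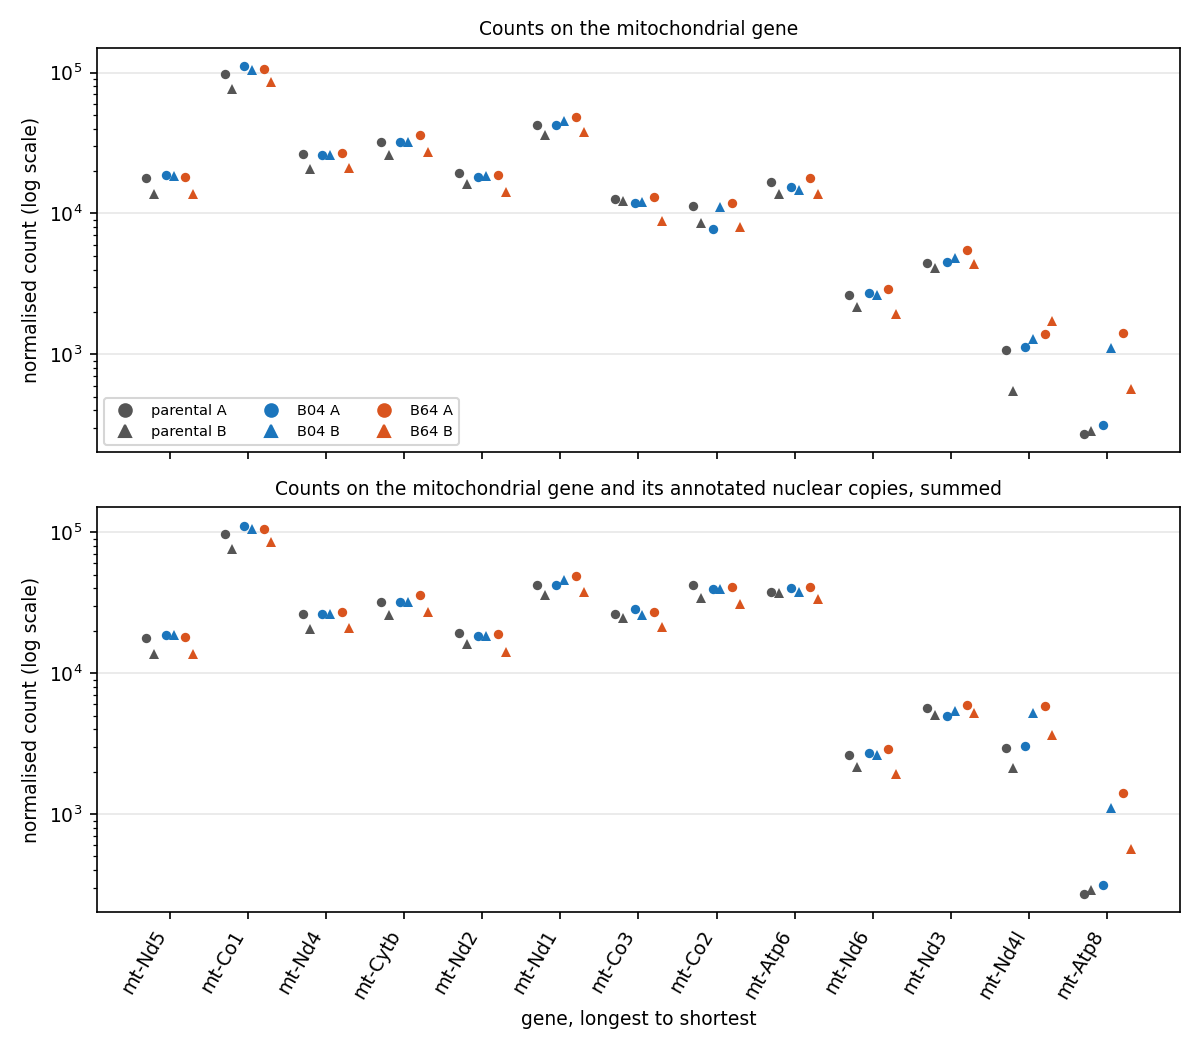
Normalised counts of the 13 mitochondrial members (log scale) in each library, ordered from the longest gene to the shortest; grey, parental; blue, B04; orange, B64; circles, replicate A; triangles, replicate B. The upper panel holds counts on the mitochondrial gene alone and the lower panel adds its nuclear copies, which raises mt-Co2 from between 7700 and 11930 to between 31033 and 42436; mt-Atp8, at the far right, separates B04 B and both B64 libraries from the other 3.

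Mitochondrial members took 1.316% and 1.051% of all expected counts in parental A and B, 1.37% and 1.37% in B04, and 1.401% and 1.079% in B64. The lines overlapped, except that both B04 libraries lay above both parental ones. That order did not hold on 2 other scales. With the 10 most abundant genes left out of both the total and the members' sum, parental had 0.906% and 0.736% and B04 0.891% and 0.924%. That value lacks the members among those 10 genes, so it is not the share of all members. As a share of TPM, parental had 2.983% and 2.439% and B04 2.972% and 2.813%. With 2 libraries against 2 an exact permutation test cannot give p below 0.33, so no test was made. Nuclear members took between 0.549% and 0.599% of counts in the 6 libraries. With nuclear copies added, the mitochondrial share was 1.637% and 1.342% in parental, 1.729% and 1.699% in B04, and 1.726% and 1.343% in B64.

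For 4 members, the nuclear copy held more of the counts than the mitochondrial gene did in every library. The copies of mt-Co2, a core subunit of complex IV that takes electrons from cytochrome c, held 73.5% and 74.7% of the joint count in parental, 80.7% and 71.9% in B04, and 71% and 74.1% in B64. Those of mt-Atp6, mt-Co3 and mt-Nd4l held between 50.6% and 76.2%. The copy of mt-Nd4 held at most 0.453%, although 876 of its bases match. Reads of these genes are placed by RSEM's estimate, and which genome they came from was not tested.

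Summing each gene with its copies narrowed several standard errors. mt-Co2 alone had 11238 and 8617 normalised counts in parental, 7700 and 11180 in B04, and 11930 and 8027 in B64, so that B04 A was the lowest of the 6. Summed, it had 42436 and 34048, 39870 and 39743, and 41122 and 31033, and the B04 libraries fell between the parental ones. The standard error of its log2 fold change in B04 went from 0.35 to 0.17, that of mt-Atp6 from 0.20 to 0.07 and that of mt-Co3 from 0.22 to 0.14. For mt-Nd4l it widened from 0.40 to 0.47, and the log2 ratio of B04 B over B04 A rose from 0.19 to 0.79. Among the summed genes 0 of 13 were called in each comparison.

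mt-Nd3 showed a shift between gene and copy rather than in their sum. Its copy Gm28438 had 1196 and 946 normalised counts in parental, 396 and 509 in B04, and 501 and 791 in B64. Both clones lay below parental, and the copy was called lower in B04 (log2 fold change -1.24, adjusted p = 0.00125) but not in B64 (-0.73, adjusted p = 0.119). Gene and copy together gave 5652 and 5045 in parental, 4954 and 5357 in B04, and 5968 and 5187 in B64, with log2 fold changes of -0.05 (SE 0.08) and 0.06 (SE 0.08). The groups overlapped in the sum. As the printed sequences show, a single base near the start separates gene from copy over the compared stretch, so reads that do not cover it match both.

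**Figure D2:**
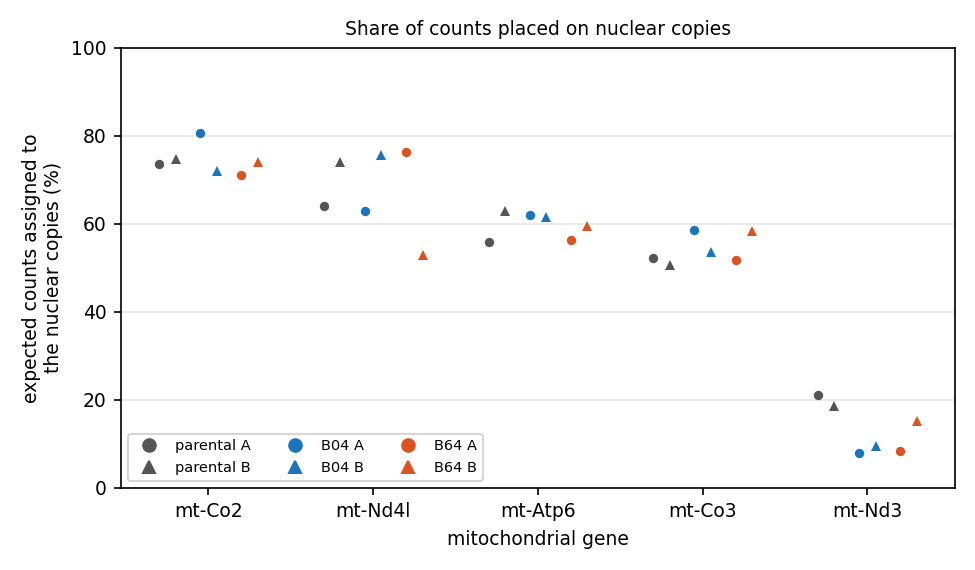
Share of the joint expected count of a mitochondrial gene and its nuclear copies that was placed on the copies (percent), for 5 genes in each library; grey, parental; blue, B04; orange, B64; circles, replicate A; triangles, replicate B. For mt-Nd3 the parental libraries (21.2% and 18.7%) lie above the clones (7.99% to 15.2%), and for mt-Co2 B04 A stands highest at 80.7%.

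Levels were compared between genes as normalised count per kb of RSEM length, and the order holds for that scale only. Counted on the mitochondrial gene alone, mt-Co1 stood highest with a mean of 62588 per kb (range over libraries 49555 to 71790), and overlapped mt-Nd1 at 44014 (37752 to 50796). mt-Cytb at 26981 (22736 to 31292) overlapped mt-Atp6 at 22495 (20039 to 26321), and both lay below mt-Nd1. mt-Nd4 (17768), mt-Nd2 (16861), mt-Co3 (15036), mt-Co2 (14301) and mt-Nd3 (13326) came next, and neighbours among these 5 overlapped. mt-Nd5 (9195) lay below them in every library, and mt-Nd6 (4798), mt-Nd4l (3995) and mt-Atp8 (3237) stood lowest and overlapped each other. mt-Nd6 is the only member read from the minus strand of the reference, and since no strand setting is stated, its reads and those of transcripts opposite it cannot be told apart.

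The order depended on the scale and on the copies. In TPM, which divides by effective length, mt-Atp8 (7106 to 8530) stood above mt-Co1 (2984 to 4593) in every library. With copies added, mt-Nd4l rose to 12813 per kb (7098 to 19649) and its range overlapped that of mt-Nd5 at 9195 (7520 to 10274). With copies, mt-Atp6 (55750 per kb) and mt-Co2 (55617) moved to a level whose ranges overlapped that of mt-Co1 (62641), and mt-Co3 rose to 32791. RNA was selected with oligo(dT) beads, so these levels also depend on the poly(A) tails of mitochondrial transcripts, which were not measured. Among nuclear members the median level was 2943 per kb. The highest were Cox6a1 (18949) and Cox4i1 (17648), both of complex IV, and Uqcrq of complex III (11401), and the lowest were Ndufs8 (1056) and Ndufs1 (1077) of complex I.

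Of the 46 members, 1 mitochondrial and 2 nuclear ones met a rule for following fragment length. Only the 2 B04 libraries separate fragment length from line, so the part of each was not tested. The rule asked that B04 B and both B64 libraries all lie on the same side of the other 3, and that the 2 B04 libraries differ by more than 1.2 times. Over all genes tested, 4.18% met it. mt-Atp8 had 272 and 288 normalised counts in parental and 313 in B04 A, against 1106 in B04 B, 1418 in B64 A and 565 in B64 B. The 2 libraries of the B04 line thus differed by 3.54 times. Its log2 fold changes of 1.34 (SE 0.83, adjusted p = 0.267) in B04 and 1.82 (SE 0.83, adjusted p = 0.126) in B64 were not called. B04 A differed from the parental mean by 0.16 on the log2 scale. In TPM mt-Atp8 was 7560 and 7109 in parental, 7508 and 7804 in B04, and 8530 and 7106 in B64, where RSEM's effective length for it was between 1.86 and 8.81 bases.

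Cox6c, a small subunit of complex IV, had 4051, 4272 and 4345 normalised counts in the 3 long-fragment libraries (the last B04 A), and 5773, 5468 and 4446 in B04 B, B64 A and B64 B. Cycs, which encodes somatic cytochrome c, had 5904 and 5995 in parental and 5097 in B04 A, against 6148 in B04 B, 7349 in B64 A and 6646 in B64 B. Its B04 libraries differed by 1.21 times, just past the limit of 1.2. mt-Nd4l met the order but not the gap, with a ratio of 1.14 between B04 B and B04 A, and it met both once its copy was added.

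The median ratio between the B04 libraries rose as genes became shorter, with a wide spread among short genes. Among genes of 250 to 350 bases with a mean of at least 10 normalised counts (40 genes), the median log2 ratio of B04 B over B04 A was 0.52 (quartiles -0.37 and 1.02). It was 0.15 (quartiles -0.07 and 0.4) for 155 genes of 350 to 500 bases. For 1168 genes of 500 to 1000 bases it was 0.06, and for 7110 genes of 2000 bases or more -0.03. Only 2 genes, mt-Atp8 among them, were shorter than 250 bases. mt-Atp8 stood at 1.82, Cox6c (506.4 bases) at 0.41 and Uqcrb (535 bases) at 0.35, while mt-Nd3 (348 bases) stood at 0.09.

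**Figure D3:**
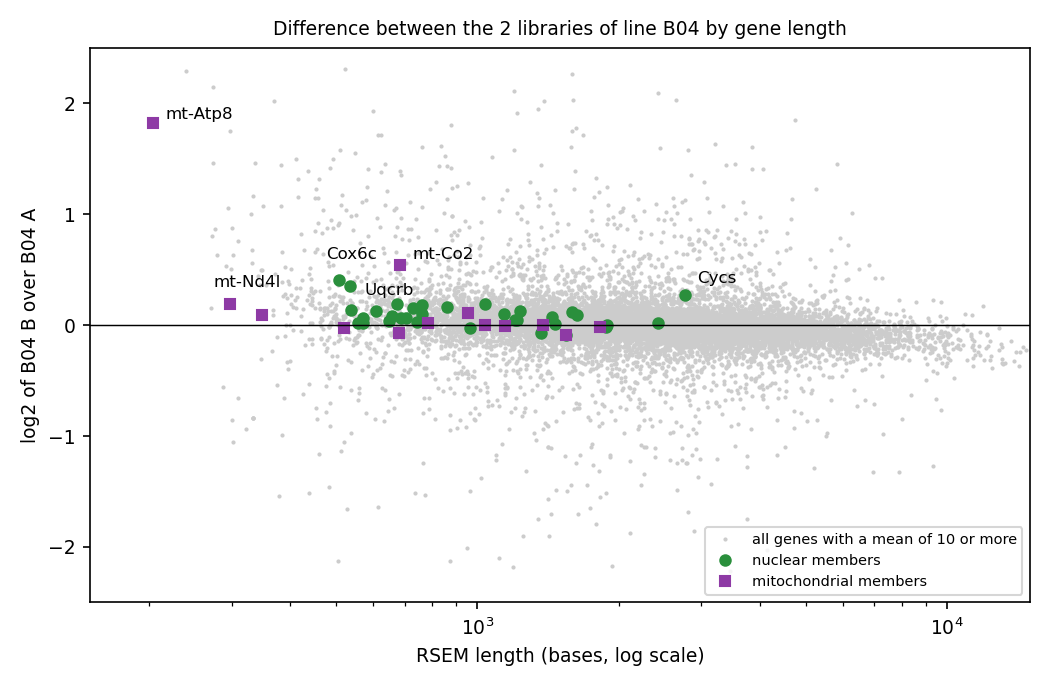
Log2 ratio of normalised counts between the 2 libraries of line B04 (B04 B over B04 A) against RSEM gene length (bases, log scale); grey, genes with a mean of 10 or more; green, nuclear members; purple, mitochondrial members. mt-Atp8 lies highest among the members at 1.82, and Cycs, a longer gene, stands at 0.27.

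Among the 33 nuclear members, 7 were called in B04 against parental, 4 higher and 3 lower. That is 21.2%, beside 24.1% of all genes (11.2% higher and 12.9% lower). In B64 against parental 5 were called, 3 higher and 2 lower, which is 15.2% beside 16.3% of all genes (8.87% higher and 7.45% lower). In B64 against B04 5 were called, 4 higher and 1 lower, which is 15.2% beside 24.3% (13.1% higher and 11.1% lower). Median log2 fold changes were -0.03, 0.03 and 0.03, beside 0 over all genes, and every nuclear member stayed within -0.42 and 0.42. By complex, B04 calls fell on 5 of 15 in complex I, 1 of 4 in complex II, 1 of 6 in complex III and 0 of 7 in complex IV, where 2 of 7 had an unadjusted p under 0.05 and edgeR called 0. With fragment-length class added to the DESeq2 fit, 3 members were called in B04 (3 lower), 0 in B64 and 3 in B64 over B04 (2 higher, 1 lower). With effective length as an offset, 1 was called higher and 4 lower in B04, 0 higher and 4 lower in B64, and 2 higher and 1 lower in B64 over B04. By limma on log2(TPM + 1) 3 were higher and 2 lower in B04, 0 higher and 2 lower in B64, and 2 higher and 2 lower in B64 over B04. Without these terms, edgeR called 9, 4 and 6 and the members with an unadjusted p under 0.05 in DESeq2 numbered 12, 12 and 7. Over all genes, calls in the same order were 3181, 2157 and 3118 by DESeq2 without these terms. They were 1596, 340 and 1625 with the class, and 2476, 1671 and 2383 with the offset. By limma they were 1999, 1287 and 2093, and by edgeR 4281, 3038 and 4201.

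**Figure D4:**
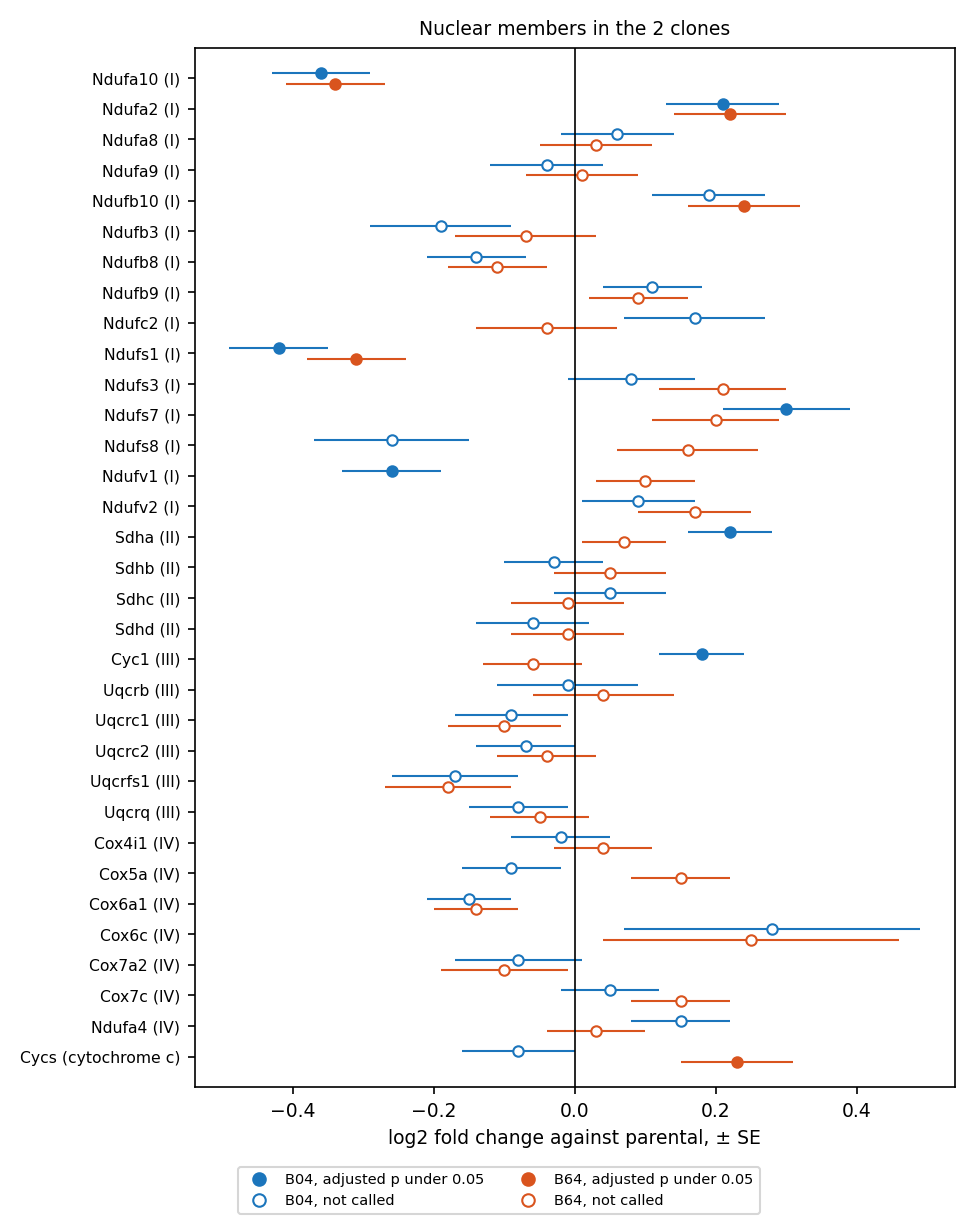
Log2 fold change against parental (± SE from DESeq2) of the 33 nuclear members in B04 (blue) and B64 (orange), grouped by complex (roman numeral after the symbol); filled points passed an adjusted p of 0.05, and both clones share the same parental libraries. Ndufs1 and Ndufa10 lie to the left in both clones, and Ndufv1 and Ndufs8 lie to the left in B04 but not in B64.

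Ndufs1 and Ndufa10 were lower in both clones. Ndufs1 is the large iron-sulfur subunit of the arm of complex I that takes electrons from NADH. It had 3041 and 3092 normalised counts in parental, 2287 and 2311 in B04, and 2509 and 2422 in B64. All 4 clone libraries lay below both parental ones, at -0.42 in B04 (SE 0.07, adjusted p = 9.95e-08 by DESeq2) and, on the same log2 scale, -0.31 (SE 0.07, adjusted p = 0.000164) in B64. Ndufa10, an accessory subunit of complex I, had 2866 and 3006 in parental, 2299 and 2269 in B04, and 2345 and 2296 in B64. Its log2 fold changes were -0.36 (SE 0.07, adjusted p = 8.8e-06) and -0.34 (SE 0.07, adjusted p = 6.27e-05). Between the long-fragment libraries alone, B04 A lay 0.42 below the parental mean for Ndufs1 and 0.35 below it for Ndufa10 on the log2 scale. Both B64 calls were lost when fragment-length class was added to the fit, at -0.33 (adjusted p = 0.375) and -0.32 (adjusted p = 0.435).

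Both genes lie on chromosome 1, Ndufs1 at bases 63143596 to 63176833 and Ndufa10 at 92439010 to 92473860, on the minus strand. The 55 other tested genes within 5 Mb of Ndufs1 had a median log2 fold change of -0.30 in B04 and -0.34 in B64. Of these, 34.5% were called lower in B04 and 34.5% in B64, beside 12.9% and 7.45% of all genes. Ndufb3, an accessory subunit of complex I at 58586384 to 58595964, has 59 such neighbours, with medians of -0.32 and -0.34, but was itself at -0.19 (adjusted p = 0.174) and -0.07 (adjusted p = 0.767). Around Ndufa10 the medians of 60 neighbours were -0.04 and -0.18, and 26.7% and 20% were called lower. All windows of neighbours were added after the values of the members were seen.

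Ndufv1 and Ndufs8 differed between the clones. Ndufv1 binds the flavin through which NADH gives up its electrons, and Ndufs8 carries iron-sulfur clusters further along the path. Ndufv1 had 3411 and 3677 normalised counts in parental, 2844 and 3086 in B04, and 3765 and 3825 in B64. B04 lay below parental and B64 above it, and the log2 difference of B64 over B04 was 0.36 (SE 0.07, adjusted p = 1.18e-05). Against parental, B04 was called lower (-0.26, SE 0.07, adjusted p = 0.00271), a call lost without B04 A (-0.20), without parental B (-0.21) or by limma on log2(TPM + 1) (-0.18), whereas B64 was not called (0.10, adjusted p = 0.43). Ndufs8 had 1031 and 1038 in parental, 873 and 854 in B04, and 1084 and 1220 in B64. It differed between the clones by 0.42 (SE 0.11, adjusted p = 0.000663), which without B64 B became 0.33 (adjusted p = 0.115). The genes lie close together on chromosome 19, Ndufs8 at 3908863 to 3912774 and Ndufv1 at 4007384 to 4012806. The 176 neighbours of Ndufv1 within 5 Mb had a median log2 fold change of -0.01 in B04. Of these, 19.3% were called lower and 9.09% higher in B04, beside 12.9% and 11.2% of all genes.

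Ndufs7 and Ndufa2 were the complex I members called higher in B04. Ndufs7, an iron-sulfur subunit next to the quinone site, had 1618 and 1855 normalised counts in parental, 2000 and 2264 in B04, and 2008 and 1994 in B64. Its log2 fold change was 0.30 in B04 (SE 0.09, adjusted p = 0.00854), and 0.20 without B04 B (adjusted p = 0.301) or without parental A (adjusted p = 0.277). With effective length as an offset it was at 0.23 (adjusted p = 0.127), and with fragment-length class in the DESeq2 fit at 0.20 (adjusted p = 0.332). Ndufa2, an accessory subunit, was higher by 0.21 in B04 (adjusted p = 0.0434) and 0.22 in B64 (adjusted p = 0.043), with parental A lowest at 3065 and the other 5 libraries between 3655 and 4021. Without parental A it was at 0.09 and 0.10, and it was not called, as it was also not when any clone library of its comparison was left out. With effective length as an offset it was at 0.09 and 0.04 (adjusted p = 0.69 and 0.909). With fragment-length class in the DESeq2 fit it was at 0.20 and 0.21 (adjusted p = 0.278 and 0.982). The 108 genes within 5 Mb of it had medians of 0.19 and 0.23, and 29.6% and 25.9% of them were called higher, beside 11.2% and 8.87% of all genes. Ndufb10 was higher in B64 by 0.24 (adjusted p = 0.0312) and lost that call without each library in turn, at 0.19 to 0.28, and with the effective-length offset (0.11, adjusted p = 0.5). The call was also lost with fragment-length class in the DESeq2 fit (0.08) and with replicate letter in it (0.24, adjusted p = 0.0555).

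In complexes II and III, Sdha and Cyc1 were higher in B04. Sdha, the flavoprotein of complex II that oxidises succinate, had 4873 and 5076 normalised counts in parental, 5681 and 5898 in B04, and 5053 and 5362 in B64. Its log2 fold change in B04 was 0.22 (SE 0.06, adjusted p = 0.00322), and 0.19 without B04 B (adjusted p = 0.116) or without parental A (adjusted p = 0.0981). Cyc1, the cytochrome of complex III that hands electrons to cytochrome c, had 4778 and 5159 in parental, 5621 and 5663 in B04, and 4602 and 4897 in B64. It was higher in B04 than in parental (0.18, adjusted p = 0.0233) and lower in B64 than in B04 (-0.25, adjusted p = 0.00113). The first call was lost without B04 A (0.19), B04 B (0.18) or parental A (0.13) and with the effective-length offset (0.15, adjusted p = 0.115), and the second without B64 A (-0.20, adjusted p = 0.112). With fragment-length class in the DESeq2 fit, B04 was at 0.19 for Sdha (adjusted p = 0.138) and 0.18 for Cyc1 (adjusted p = 0.216) against parental. The 155 genes within 5 Mb of Cyc1 had a median of 0.25 in B04, and 34.8% of them were called higher, beside 11.2% of all genes. In B64 their median was 0.14 and 17.4% were called higher, beside 8.87% of all genes, whereas Cyc1 was at -0.06. Other called members had flatter windows. Medians were -0.02 around Sdha and 0.01 around Ndufs7 in B04, and 0.02 around Ndufb10 in B64. In B64 over B04 they were 0.01 around Cycs and 0.02 around Cox5a.

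Cycs and Cox5a were higher in B64 than in B04. For Cycs the log2 difference was 0.32 (SE 0.08, adjusted p = 0.00085), and 0.23 against parental (SE 0.08, adjusted p = 0.0284). As given above, Cycs also followed fragment length. Between the short-fragment libraries, B64 lay 0.19 above B04 B, and between the long ones B04 A lay 0.22 below the parental mean on the log2 scale. Without B64 A the difference was 0.24 (adjusted p = 0.109) and without B04 A 0.19 (adjusted p = 0.14). Against parental it was 0.16, 0.22 and 0.24 without B64 A, parental A and parental B, and not called. The effective length of Cycs was between 2780.77 and 2833.66 bases in the long-fragment libraries and between 2021.72 and 2445.95 in the others. With it as an offset the log2 fold change of B64 was 0.60 against parental (adjusted p = 0.257) and 0.45 against B04 (adjusted p = 0.386), and limma on log2(TPM + 1) gave 0.62 (adjusted p = 0.166) and 0.44 (adjusted p = 0.267). The edgeR test also left it uncalled against parental (adjusted p = 0.058). Cycs has processed copies in the mouse genome whose share of its reads was not examined. Cox5a, a subunit of complex IV that faces the matrix, had 3125 and 3367 normalised counts in parental, 3018 and 3098 in B04, and 3672 and 3533 in B64. It differed between the clones by 0.24 (SE 0.07, adjusted p = 0.00505), and by 0.22 without B04 A (adjusted p = 0.118) or 0.21 without B64 A (adjusted p = 0.153). The offset lowered the Cox5a difference to 0.19 (adjusted p = 0.131). With fragment-length class in the DESeq2 fit it was 0.22 (adjusted p = 0.145), and by limma on log2(TPM + 1) 0.16 (adjusted p = 0.119).

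**Figure D5:**
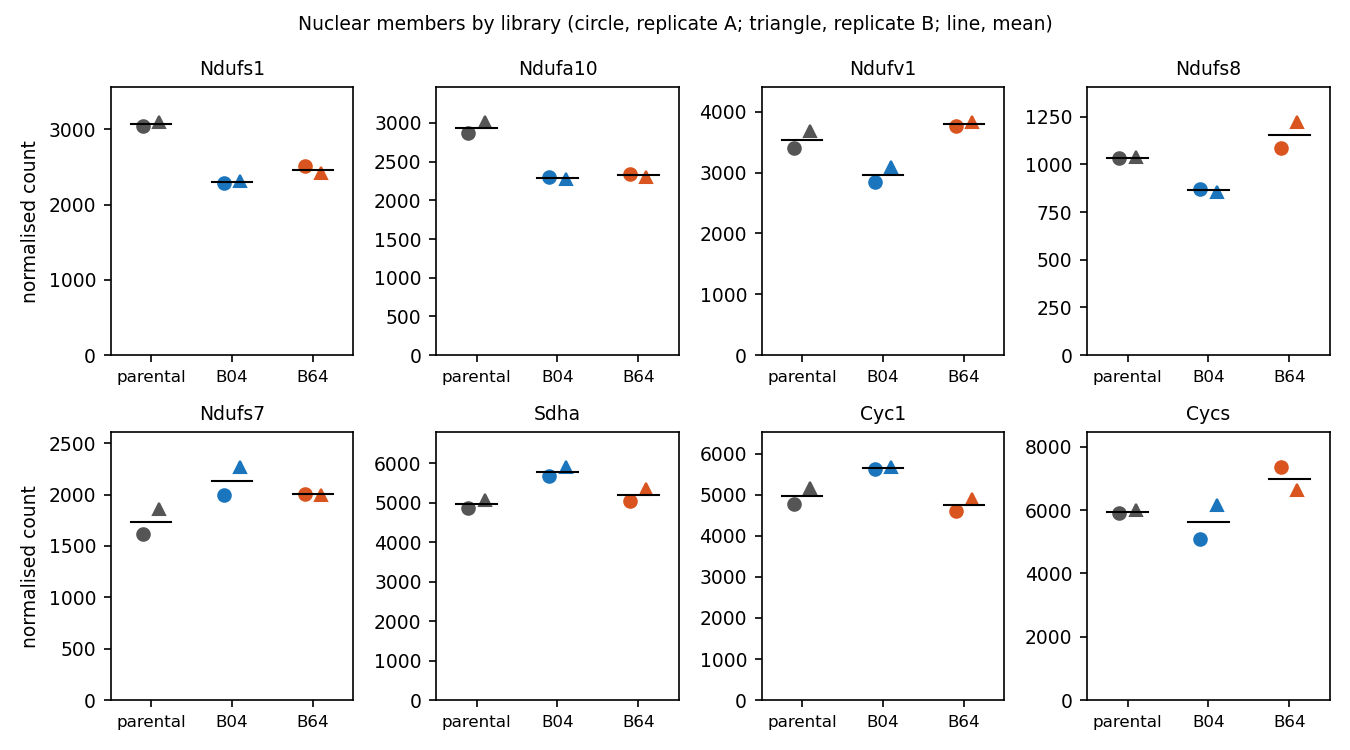
Normalised counts of 8 nuclear members in each library by line (axes start at 0); circles, replicate A; triangles, replicate B; the line marks the mean of the 2. Ndufs1 falls from 3041 and 3092 in parental to between 2287 and 2509 in the clones, while Ndufv1 and Ndufs8 are lowest in B04.

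The other 22 nuclear members were called in none of the comparisons. Their log2 fold changes against parental were between -0.19 and 0.28 in B04 and between -0.18 and 0.25 in B64. They include Uqcrc1 and Uqcrc2, the core proteins of complex III, at -0.09 (SE 0.08) and -0.07 (SE 0.07) in B04, and Uqcrfs1, its Rieske iron-sulfur protein, at -0.17 (SE 0.09) in B04 and -0.18 (SE 0.09) in B64. Cox4i1, the most highly counted nuclear member of complex IV, was at -0.02 (SE 0.07) and 0.04 (SE 0.07). Sdhb, Sdhc and Sdhd of complex II lay within -0.06 and 0.05 in both clones. Ndufa4, which is named for complex I but belongs to complex IV, was at 0.15 (SE 0.07, adjusted p = 0.142) in B04. Cox6a1 was at -0.15 (adjusted p = 0.0509) in B04 and -0.14 (adjusted p = 0.0926) in B64, and was called lower in both without parental A, at -0.21 and -0.20. With the effective-length offset it was called lower in both, at -0.27 (adjusted p = 0.0137) and -0.32 (adjusted p = 0.00294). Ndufb8 was called lower in B04 without parental A, at -0.23.

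Promoters of nuclear members were read from RefSeq sequences on GRCm38.p6, 250 bases before to 50 bases after the start. Of the 33 members, 23 matched. Exact matches on either strand were counted for motifs of factors known to act on respiratory genes. The motif of NRF1, GCGCANGCG, was in 7 of 23 member promoters (30.4%), beside 6.25% of all 32851 promoters. The ETS motif bound by GABP, CCGGAAG, was in 5 (21.7%, beside 8.86%), that of YY1, AAGATGGCG, in 2 (8.7%, beside 1.4%), and that of ERR, TCAAGGTCA, in 1 (4.35%, beside 0.423%). The last 3 letters of the ETS motif are the first 3 of the YY1 motif, so matches to this pair can overlap. A match is a description of the letters only.

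The promoters of the differing pair Ndufs8 and Ndufv1, of Ndufa10 and of Cycs are printed 5′ to 3′ in the direction of the gene. These genes were called in a comparison of lines above, but Cycs also followed fragment length. Capitals mark motif matches. Ndufs8 holds the ETS motif on the opposite strand, Cycs holds the NRF1 motif on the opposite strand, and Ndufv1 and Ndufa10 hold none of the 4. They lie at chr19:3912725-3913024, chr19:4012706-4013005, chr1:92473709-92474008 and chr6:50566520-50566819, each on the minus strand.
Ndufs8: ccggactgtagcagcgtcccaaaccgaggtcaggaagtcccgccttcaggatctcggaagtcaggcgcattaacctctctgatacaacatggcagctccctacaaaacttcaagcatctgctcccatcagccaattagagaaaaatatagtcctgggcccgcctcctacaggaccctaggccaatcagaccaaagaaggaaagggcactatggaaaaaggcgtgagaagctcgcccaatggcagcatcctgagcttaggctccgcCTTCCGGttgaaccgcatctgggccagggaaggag
Ndufv1: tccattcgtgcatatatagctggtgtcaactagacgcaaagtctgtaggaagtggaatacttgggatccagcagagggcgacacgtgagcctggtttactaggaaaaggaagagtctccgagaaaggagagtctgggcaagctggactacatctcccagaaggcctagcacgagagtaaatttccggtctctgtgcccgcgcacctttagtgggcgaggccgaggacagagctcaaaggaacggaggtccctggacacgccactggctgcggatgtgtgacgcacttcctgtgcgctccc
Ndufa10: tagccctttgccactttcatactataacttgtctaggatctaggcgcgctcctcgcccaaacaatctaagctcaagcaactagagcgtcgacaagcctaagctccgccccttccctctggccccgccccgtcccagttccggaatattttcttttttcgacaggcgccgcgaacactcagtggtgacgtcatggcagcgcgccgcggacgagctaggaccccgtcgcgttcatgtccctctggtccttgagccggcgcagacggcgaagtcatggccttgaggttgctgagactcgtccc
Cycs: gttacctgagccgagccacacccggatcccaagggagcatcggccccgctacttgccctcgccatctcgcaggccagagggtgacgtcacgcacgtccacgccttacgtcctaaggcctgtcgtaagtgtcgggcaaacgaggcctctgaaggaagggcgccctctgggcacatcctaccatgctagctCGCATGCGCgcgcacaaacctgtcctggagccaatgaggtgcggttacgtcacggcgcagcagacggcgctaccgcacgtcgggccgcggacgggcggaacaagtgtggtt

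Other genes of the pathway were examined as lists. Of 21 further complex I subunits, 6 were called in B04 (3 higher, 3 lower), 4 in B64 (2 higher, 2 lower) and 3 in B64 over B04 (3 higher). That is 28.6%, 19% and 14.3%, beside 24.1%, 16.3% and 24.3% of all genes. Ndufs5 had 1910 and 1983 normalised counts in parental, 1337 and 1408 in B04, and 1346 and 1313 in B64. The 4 clone libraries lay below parental, at -0.50 (SE 0.09, adjusted p = 9.57e-08) and -0.55 (SE 0.09, adjusted p = 9.29e-09). Ndufa1 and Ndufb11, both on chromosome X, were higher in both clones, by 0.43 and 0.38 in B04 and by 0.48 and 0.34 in B64. Ndufa3 was lower in B64 (-0.26), Ndufa6 was higher in B04 (0.25), and Ndufc1 was lower in B04 (-0.39) and higher in B64 than in B04 (0.51). Ndufb5 was likewise lower in B04 (-0.27) and higher in B64 than in B04 (0.26), and Ndufab1 was higher in B64 than in B04 (0.25). Ndufa6, Ndufab1 and the fall of Ndufb5 were named after their values were seen.

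Of 10 tested further subunits of complexes III and IV, 2 were called in B04, Uqcr11 (0.25) and Cox7a2l (0.24), and Cox7a2l was lower in B64 than in B04 (-0.27), which makes 20% and 10% beside 24.1% and 24.3% of all genes. None was called in B64, where 1 had an unadjusted p under 0.05 and edgeR called 1. Of 19 tested nuclear subunits of complex V, 5 were called in B04 (2 higher, 3 lower), 5 in B64 (2 higher, 3 lower) and 4 in B64 over B04 (3 higher, 1 lower), at 26.3%, 26.3% and 21.1% beside 24.1%, 16.3% and 24.3% of all genes. Atp5a1, the alpha subunit of the catalytic head, had 15275 and 16288 normalised counts in parental, 15036 and 14689 in B04, and 11146 and 11915 in B64. B64 lay below the other 4 libraries, at -0.45 against parental (SE 0.06, adjusted p = 1.48e-13) and -0.37 against B04 (SE 0.06, adjusted p = 3.17e-09). Atp5c1, the gamma subunit of the rotor, was higher in B04 (0.31) and in B64 (0.24). Atpif1, the inhibitor of the enzyme, was higher in B64 than in parental (0.31) and than in B04 (0.34). The others called were Atp5g2 (0.24), Atp5f1 (-0.25), Atp5g1 (-0.17) and Atp5b (-0.12) in B04, Atp5h (-0.21) and Atp5e (-0.21) in B64, and Atp5f1 (0.18) and Atp5g3 (0.18) in B64 over B04. Atp5b, Atp5e and Atp5g3 were named after their values were seen.

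Of 46 assembly factors, 5 were called in B04 (2 higher, 3 lower), 3 in B64 (2 higher, 1 lower) and 4 in B64 over B04 (4 higher). That is 10.9%, 6.5% and 8.7%, beside 24.1%, 16.3% and 24.3% of all genes, and edgeR called 12, 9 and 7. Coa5, an assembly factor of complex IV on chromosome 1, was lower in B04 (-0.37) and B64 (-0.45). Acad9 and Tmem70, which act in the assembly of complex I and complex V, were lower in B04 (-0.45 and -0.48), and Tmem70 was higher in B64 than in B04 (0.39). Ndufaf7 (0.42) and Atpaf1 (0.38) were higher in B04, Pet100 (0.67) and Foxred1 (0.34) in B64, and Ndufaf3 (0.52), Ttc19 (0.37) and Cox17 (0.35) in B64 over B04. Coa5 in B04, Ttc19 and Cox17 were named after their values were seen.

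Of 33 tested genes of mitochondrial DNA maintenance, transcription and RNA handling, 5 were called in B04, all lower, 4 in B64 (1 higher, 3 lower) and 4 in B64 over B04 (2 higher, 2 lower). The shares were 15.2%, 12.1% and 12.1%, beside 24.1%, 16.3% and 24.3% of all genes, of which 12.9% were lower in B04. Fastkd2, a mitochondrial RNA-binding protein encoded on chromosome 1, had 714 and 760 normalised counts in parental, 428 and 474 in B04, and 541 and 518 in B64. Both clones lay below parental, at -0.71 (SE 0.13, adjusted p = 1.27e-06) and -0.48 (SE 0.13, adjusted p = 0.00319). Trmt10c, a subunit of the enzyme that cuts the 5′ ends of mitochondrial tRNAs out of the precursors, was lower in B04 (-0.52) and higher in B64 than in B04 (0.35). Lrpprc (-0.24), Pnpt1 (-0.30) and Ptcd3 (-0.30) were the others in B04. In B64, Ptcd3 (-0.29) and Grsf1 (-0.27) were lower and Ssbp1, the single-stranded DNA-binding protein of mitochondria, higher (0.30). In B64 over B04, Ssbp1 (0.28) was higher and Mgme1 (-0.39) and Grsf1 (-0.26) were lower. Lrpprc, Pnpt1, Ptcd3 in B04 and Grsf1 in B64 against parental were named after their values were seen.

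Of 13 nuclear regulators of mitochondrial genes, 4 were called in B04 (1 higher, 3 lower), 3 in B64 (1 higher, 2 lower) and 2 in B64 over B04 (1 higher, 1 lower). That is 30.8%, 23.1% and 15.4%, beside 24.1%, 16.3% and 24.3% of all genes. Ppargc1a, the coactivator PGC-1 alpha, a regulator of mitochondrial biogenesis, had 40 and 38 expected counts in parental, 0 and 2 in B04, and 0 and 1 in B64. It was lower in both clones (DESeq2 adjusted p = 0.000414 and 0.00227). Parental exceeded B04 by 38.3-fold (95% exact interval 10.3 to 321.7) and B64 by 67.6-fold (11.8 to 2702.2), intervals that cover counting error only. Its level is too low for the rule on named genes, and it was named after its values were seen. Pprc1, a related coactivator, had 2293 and 2185 normalised counts in parental, 1734 and 1658 in B04, and 1680 and 1674 in B64, at -0.40 (SE 0.08, adjusted p = 9.48e-06) and -0.42 (SE 0.08, adjusted p = 6.71e-06). Esrra was lower in B04 (-0.29), Sp1 was higher in B04 (0.20) and lower in B64 than in B04 (-0.19), and Nfe2l2 was higher in B64 than in parental (0.38) and than in B04 (0.29).

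Gapdh and Actb are often used as reference genes. Gapdh had 60684 and 64256 normalised counts in parental and 62056 in B04 A, against 71931 in B04 B, 73729 in B64 A and 72910 in B64 B. It was thus higher in every short-fragment library than in every long-fragment one. In TPM it was between 3523.38 and 3872.54 in the long-fragment libraries and between 5699.93 and 6858.32 in the others. Actb was between 45456 and 51410 normalised counts.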

How the data were processed

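RNA-seq was performed on 6 libraries, 2 each of parental CT26, B04 and B64, grouped by the sample titles. Per the labels and the methods of the study, STAR was used by the authors for alignment to mm10, and RSEM for quantification. Versions, strand setting and annotation release are not given in the sources used here. The deposited tables hold an expected count per gene, for which RSEM divides reads that match several genes among them, and TPM, a level that the authors' RSEM run scales by effective length and depth. Lengths and effective lengths come from these tables as well.

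Of 53801 gene identifiers, 53620 (99.7%) matched a symbol in GENCODE M21, built on GRCm38, the assembly of mm10. Expected counts were rounded, and DESeq2 1.42.0 under R 4.3.3, the tool of the study, was run in 1 fit of all libraries with the line as its term. A gene was called where its p, adjusted by Benjamini-Hochberg over all genes, was under 0.05, with independent filtering and no shrinkage. Adjusted p-values are DESeq2's unless edgeR is named. Normalised counts are expected counts over DESeq2 size factors. Nuclear copies were found with blastn (identity of at least 95% over at least 150 bases). Alternatives used edgeR (4.0.16), limma (3.58.1) on log2(TPM + 1) and log2(TPM + 0.1), other size factors and filters, fewer libraries, and terms for replicate letter and fragment length. The fits were tested on simulated data. Depth was between 19409204 and 23472012 expected counts a library.

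The members and lists were chosen with earlier results of these data known. Values per library are given for members called in a comparison with a log2 fold change of at least 0.3 or following fragment length, and for further members that carry a comparison. From each other list, the rule named at most 2 called genes per direction and comparison with a mean of at least 100 normalised counts. Of the listed genes of other pathways and markers, 3 had no match. The replicate letters were not treated as pairs.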

Additional observations from a re-analysis of the deposited data

Results flagged for a closer look

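With 2 libraries a line, no sample could be tested as an outlier. The following members differed between the clones by the test of B64 against B04 (DESeq2, adjusted p under 0.05): on the log2 scale B64 exceeded B04 by 0.42 for Ndufs8, 0.36 for Ndufv1, 0.32 for Cycs and 0.24 for Cox5a, and Cyc1 was at -0.25. Genes of the other lists that differed in the same test were Ndufc1 (0.51), Ndufb5 (0.26) and Cox7a2l (-0.27) among further subunits, Atpif1 (0.34), Atp5f1 (0.18) and Atp5a1 (-0.37) of complex V, and the assembly factors Ndufaf3 (0.52) and Tmem70 (0.39). Trmt10c (0.35), Ssbp1 (0.28), Mgme1 (-0.39) and Grsf1 (-0.26) differed among genes that handle mitochondrial DNA and RNA, and Nfe2l2 (0.29) and Sp1 (-0.19) among regulators.

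Nuclear copies of mitochondrial genes, which are no members, held signal above both parental libraries in at least 1 clone. Gm10222, the copy of mt-Nd4l, was 1.7-fold the parental mean in B04 and 1.84-fold in B64, and Gm29216, a partial copy of mt-Co1, 2.26-fold and 3.18-fold, from between 21 and 50 normalised counts in parental. In B04, Gm10925 was 1.09-fold and Gm28437 1.16-fold the parental mean. Single libraries carried the folds of Gm10222, which had 1898 and 1561 normalised counts in parental, 1905 and 3966 in B04, and 4445 and 1937 in B64. Without B04 B it was 1.1-fold and without B64 A 1.12-fold the parental mean. Without these libraries Gm29216 was 1.59-fold and 2.1-fold. Leaving out these libraries was chosen after seeing the data. Of these copies, Gm29216 was called in B64 (adjusted p = 0.00375), and the others were not called. Gm29216 had 50 and 21 normalised counts in parental, 56 and 103 in B04, and 150 and 74 in B64. For Gm10222 and Gm29216, every short-fragment library lay above every long-fragment one, and both met the rule on fragment length given above. The part of fragment length in their folds was not tested.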

How the results depend on the processing

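The headline counts moved as follows. Over all genes, calls in B04 were 3181, and 1596 in a fit blocked on fragment-length class and 1999 or 1986 by limma on log2(TPM + 1) or log2(TPM + 0.1); leaving out each library gave 1755 to 2019. In B64 they were 2157, and 340, 1287 and 1242, with 988 to 1284 on leaving out a library, and in B64 over B04 3118, and 1625 with the class as a block and 2051 by limma on log2(TPM + 0.1), with 1696 to 1961. Calls of nuclear members went from 7 to 3 in B04 and from 5 to 3 in B64 over B04 with the class as a block, and to 0 in B64, where 12 of the 33 had an unadjusted p under 0.05 in DESeq2 without it and edgeR called 4. Both limma fits left 2 in B64, and the effective-length offset left 3 in B64 over B04. Leaving out a library gave 3 to 6, 2 to 3 and 2 to 5 nuclear calls, and 0 to 1, 1 to 2 and 0 to 3 mitochondrial ones. Fits of only the 2 groups compared called 1 mitochondrial member in B64 and 1 in B64 over B04, and edgeR called 2 in B64.

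Deviations of library A from its line mean correlated at 0.265 between parental and B04, 0.204 between parental and B64, and -0.122 between B04 and B64. The letters of B04 also separate its long-fragment from its short-fragment library. These values therefore cannot settle whether the letters pair the libraries. With the letter as a replicate block, 1 mitochondrial member was called in B04 (mt-Co1, 0.32) and 1 in B64 over B04 (mt-Co1, -0.18), and nuclear calls in B64 went from 5 to 3. Among the members with the block, Cycs was not called in B64 against parental (0.24, adjusted p = 0.338) or B04 (0.32, adjusted p = 0.0995), and Cox6a1 was called in B04 (-0.14, adjusted p = 0.0433). With nuclear copies added, the block gave 1 in B04 and 2 in B64 over B04, an alternative chosen after seeing the data.

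Cycs reversed in B64 with the class as a block (-0.04, adjusted p = 1). Members that followed fragment length rose from 1 to 2 mitochondrial ones with no minimum gap or with copies added, and from 2 to 6 nuclear ones with no gap. The share of all genes was not counted for these changed rules, so the counts are no result about the members. With the 10 most abundant genes, members among them included, taken out of both sum and total, the mitochondrial share was 0.821%, 0.908% and 0.848%. These values are for parental, B04 and B64, and as a sum of TPM they were 2.711%, 2.892% and 2.724%. Ndufs1 and Ndufa10 kept their B04 call under 11 of 11 alternatives and 4 of 4 libraries left out, and Ndufv1 likewise between the clones. The causes were not tested. Low counts, such as those of Ppargc1a, are limited by depth.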
